A study of Mus musculus with 22 samples.

Results

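The 10 genes described here encode secreted signals by which mesenchymal cells act on other cells: the chemokines Ccl2, Ccl5, Ccl7, Cxcl1, Cxcl5, Cxcl10, Cxcl12, Cxcl14 and Cx3cl1, and the cytokine Il6. They were chosen by name, with earlier results of these data known, out of the 30170 genes of the count table. RNA was sequenced from C3H 10T1/2, an established mouse mesenchymal stem cell line able to form adipocytes, in cells that express DNMT3A, a de novo DNA methyltransferase, as WT, as the mutant W330R or as the double mutant W330R-R181E. WT and W330R had undifferentiated cells, in growth medium with serum and no inducer, and days 2, 4 and 6 of adipocyte differentiation, whereas W330R-R181E had days 2, 4 and 6 and no undifferentiated cells. Differentiation was induced with isobutylmethylxanthine, dexamethasone, insulin and troglitazone, of which insulin alone remained in the medium after day 2. Each of the 11 conditions had 2 libraries, which makes 22 in all. The labels give the genotype of each sample but neither how the mutants were expressed nor whether a genotype was 1 clone or several, and they do not say whether the libraries of a condition came from separate cultures, so that p-values measure the spread between these libraries, which may be technical. The columns of the W330R-R181E libraries name the second substitution R181A where the labels say R181E. The columns of the undifferentiated libraries follow another naming pattern than those of the differentiating ones. A batch between these 2 sets, if any, cannot be told apart from differentiation.

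Chemokines are small secreted proteins that direct the migration of leukocytes and progenitor cells through G protein-coupled receptors, and fall into CC, CXC and CX3C families by the spacing of their first cysteines. Mesenchymal stromal cells are a main source of Cxcl12, which holds blood progenitors in the marrow through the receptor Cxcr4. They also release Ccl2, Ccl7, Cxcl1, Cxcl5 and Il6 when inflammatory signals act through the transcription factor NF-kB, whereas Cxcl10 is a classical interferon-induced chemokine.

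Promoter sequences are shown for 4 of these genes, so that the letters behind the motif and CpG counts below can be read. RefSeq promoters on GRCm38.p6, each 300 bases with 250 before and 50 from the annotated start on, matched 6 of the 10 genes (Cxcl1, Cxcl10, Cxcl12, Cxcl14, Cx3cl1 and Il6). The build of these promoters is not the GRCm39 named in the submitters' processing notes, so that they serve as sequence only. In Cxcl1 and Cxcl10, examples of an NF-kB-responsive and an interferon-responsive gene, capitals mark the motifs searched.
Cxcl1, chr5:90890995-90891294, plus strand: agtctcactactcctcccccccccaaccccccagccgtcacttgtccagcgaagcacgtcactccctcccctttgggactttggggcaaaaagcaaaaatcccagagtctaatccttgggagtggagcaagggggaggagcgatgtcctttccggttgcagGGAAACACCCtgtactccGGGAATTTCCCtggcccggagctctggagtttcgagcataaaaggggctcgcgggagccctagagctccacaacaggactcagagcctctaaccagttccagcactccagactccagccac
Cxcl10, chr5:92348840-92349139, minus strand: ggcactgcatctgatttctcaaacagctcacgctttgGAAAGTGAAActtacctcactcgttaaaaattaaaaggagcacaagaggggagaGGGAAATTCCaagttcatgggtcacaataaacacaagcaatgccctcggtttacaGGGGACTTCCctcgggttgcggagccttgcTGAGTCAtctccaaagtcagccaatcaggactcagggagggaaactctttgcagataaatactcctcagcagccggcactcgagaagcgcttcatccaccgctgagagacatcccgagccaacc
In Cxcl12 and Cx3cl1, the genes of highest median level, capitals mark the CpG dinucleotides, the substrate of DNMT3A.
Cxcl12, chr6:117168285-117168584, plus strand: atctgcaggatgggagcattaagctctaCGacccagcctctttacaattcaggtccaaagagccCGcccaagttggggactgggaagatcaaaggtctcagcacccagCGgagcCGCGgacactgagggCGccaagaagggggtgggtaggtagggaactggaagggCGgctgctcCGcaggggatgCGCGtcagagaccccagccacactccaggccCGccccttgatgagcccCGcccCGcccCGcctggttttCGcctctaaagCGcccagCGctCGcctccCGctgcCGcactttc
Cx3cl1, chr8:94771930-94772229, plus strand: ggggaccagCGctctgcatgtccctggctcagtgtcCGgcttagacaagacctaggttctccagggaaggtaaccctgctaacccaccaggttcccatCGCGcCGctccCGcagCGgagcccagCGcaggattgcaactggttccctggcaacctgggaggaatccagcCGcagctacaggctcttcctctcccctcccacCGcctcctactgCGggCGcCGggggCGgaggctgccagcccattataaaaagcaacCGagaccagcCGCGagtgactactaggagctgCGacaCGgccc
The NF-kB-type motif GGGNNNTTCC, searched on both strands, had 3 matches in Cxcl1, of which 2 overlap on opposite strands, 2 in Cxcl10 and 1 in Il6, and none in Cxcl12, Cxcl14 or Cx3cl1. It occurred in 5.56% of all 32851 promoters of the same length. The interferon-response-type motif GAAANNGAAA had 1 match in Cxcl10 and 1 in Cxcl14, and occurred in 3.44% of promoters. The AP-1-type motif TGANTCA, likewise on both strands, had 1 match each in Cxcl10 and Il6 and occurred in 7.81% of promoters. The letters TATAAA, on the gene's own strand, were found in Cx3cl1 alone of the 6, beginning at -6 from the annotated start. They occurred in 8.32% of promoters. The windows of Cxcl14, Cxcl12 and Cx3cl1 held 22, 20 and 19 CpG, those of Cxcl1 and Cxcl10 held 10 each, and that of Il6 held 3, against a median of 7 over all promoters. No methylation was measured in these samples, and a match describes letters only.

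The libraries held between 8859501 and 47453908 counts, with a median of 19355792, and 3 counts in a library, taken as the smallest readable value, stood for 0.0583 to 0.347 CPM, the counts scaled to library size. Dnmt3a itself, whose substitutions cannot be read from counts, had between 68.5 and 347 CPM over the 22 libraries. Undifferentiated cells had 345 to 347 CPM in WT and 316 to 326 in W330R. On day 2 WT had 175 to 322 CPM, W330R 88.4 to 142 and W330R-R181E 77.3 to 148. In the same order day 4 had 105 to 160, 87.4 to 137 and 68.5 to 121 CPM, and day 6 had 111 to 149, 122 to 140 and 72.8 to 121 CPM. Markers of mesenchymal stromal cells summed to between 3706 and 23565 CPM. Markers of macrophages and other leukocytes, the main producers of several of these chemokines in tissue, summed over the 13 in the table to between 10.1 and 23.0 CPM, with Tyrobp and C1qb at 0 in all 22 libraries and Cd68 (2.14 to 16.1 CPM) and Cd14 (2.05 to 16.8 CPM) read in every one. Adipocyte markers summed to between 270 and 529 CPM in undifferentiated cells, 3990 to 11147 CPM in differentiating WT cells, 1997 to 3122 CPM in W330R and 2519 to 5281 CPM in W330R-R181E. The libraries of each undifferentiated condition lay close together, with a chi-square of counts per gene of 3.10 to 3.40, whereas those of differentiating conditions lay far apart, with 29.3 to 103.

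That gap ran through most of the 10 genes and has to be read with every level below. Pairs of levels are given with library 1 first and library 2 second. In each of the 9 differentiating conditions the library numbered 2 had more Ccl2, Ccl7, Cxcl1, Cxcl5 and Cxcl12 than the library numbered 1, a pattern that 3.88% of the 14520 tested genes shared. On the log2 CPM scale, with a prior count of 2, the median difference between the libraries of a condition was 4.82 for Cxcl5, 2.92 for Cxcl1, 2.41 for Ccl2, 1.72 for Ccl7 and 1.23 for Cxcl12. Cx3cl1 was higher in library 2 in 7 of the 9 conditions and Ccl5 in 6. In undifferentiated cells the same differences ran only from -0.44 to 0.80 over the 7 tested genes. The labels say nothing of what the libraries of 1 number share, and what set them apart was not tested. The main fit below has no term for the library number, so this gap is part of its spread. Summed leukocyte markers were 10.7 to 19.2 CPM in the differentiating libraries numbered 1 and 12.9 to 23.0 CPM in those numbered 2.

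**Figure D1:**
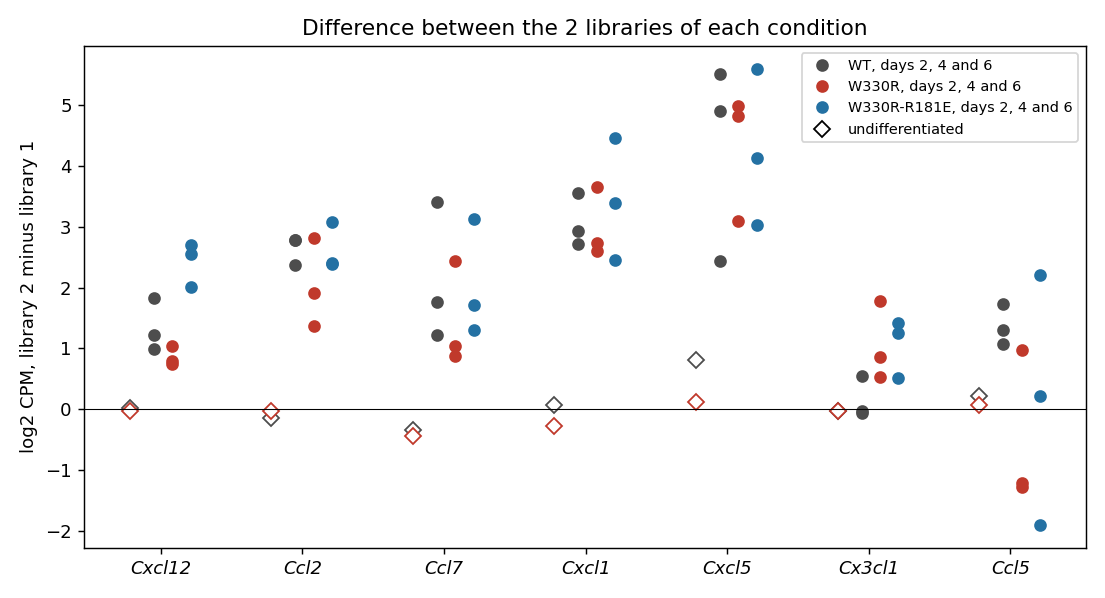
Difference in log2 CPM (prior count 2) between library 2 and library 1 of each condition, for the 7 tested genes. Filled circles are differentiating conditions and open diamonds undifferentiated ones. Every filled circle of Cxcl12, Ccl2, Ccl7, Cxcl1 and Cxcl5 lies above 0, while the diamonds lie between -0.44 and 0.80.

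Of the 10 genes, 7 passed the filter on low counts and were tested (Ccl2, Ccl5, Ccl7, Cxcl1, Cxcl5, Cxcl12 and Cx3cl1), and Cxcl10, Cxcl14 and Il6 did not. To compare levels between genes, CPM was divided by the length of each gene's merged exons in GENCODE M21, in kilobases. On this per-length scale Cxcl12 was the most abundant of the 10 in all 22 libraries, with a median of 162 CPM per kb and a range of 22.1 to 347. Cx3cl1 followed with a median of 15.3, then Ccl2 with 7.21, Cxcl1 with 6.15, Ccl7 with 2.38, Cxcl5 with 1.87 and Ccl5 with 0.244 CPM per kb. Neighbours in this order overlapped in their ranges, which for Ccl2 ran from 0.133 to 64.9 CPM per kb and for Cxcl1 from 0.162 to 35.2. Cxcl10 had a median of 0.0301 CPM per kb, and Cxcl14 and Il6 had medians of 0. At most 0.693% of the sequences of 50 bases of any of these genes, and that in Cxcl5 alone, were also found in another gene, and Ccl2 and Cxcl10 overlap another annotated gene, Gm17268 and Art3, whose reads could not be told apart because the use of strand in counting is not given in the sources used here.

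**Figure D2:**
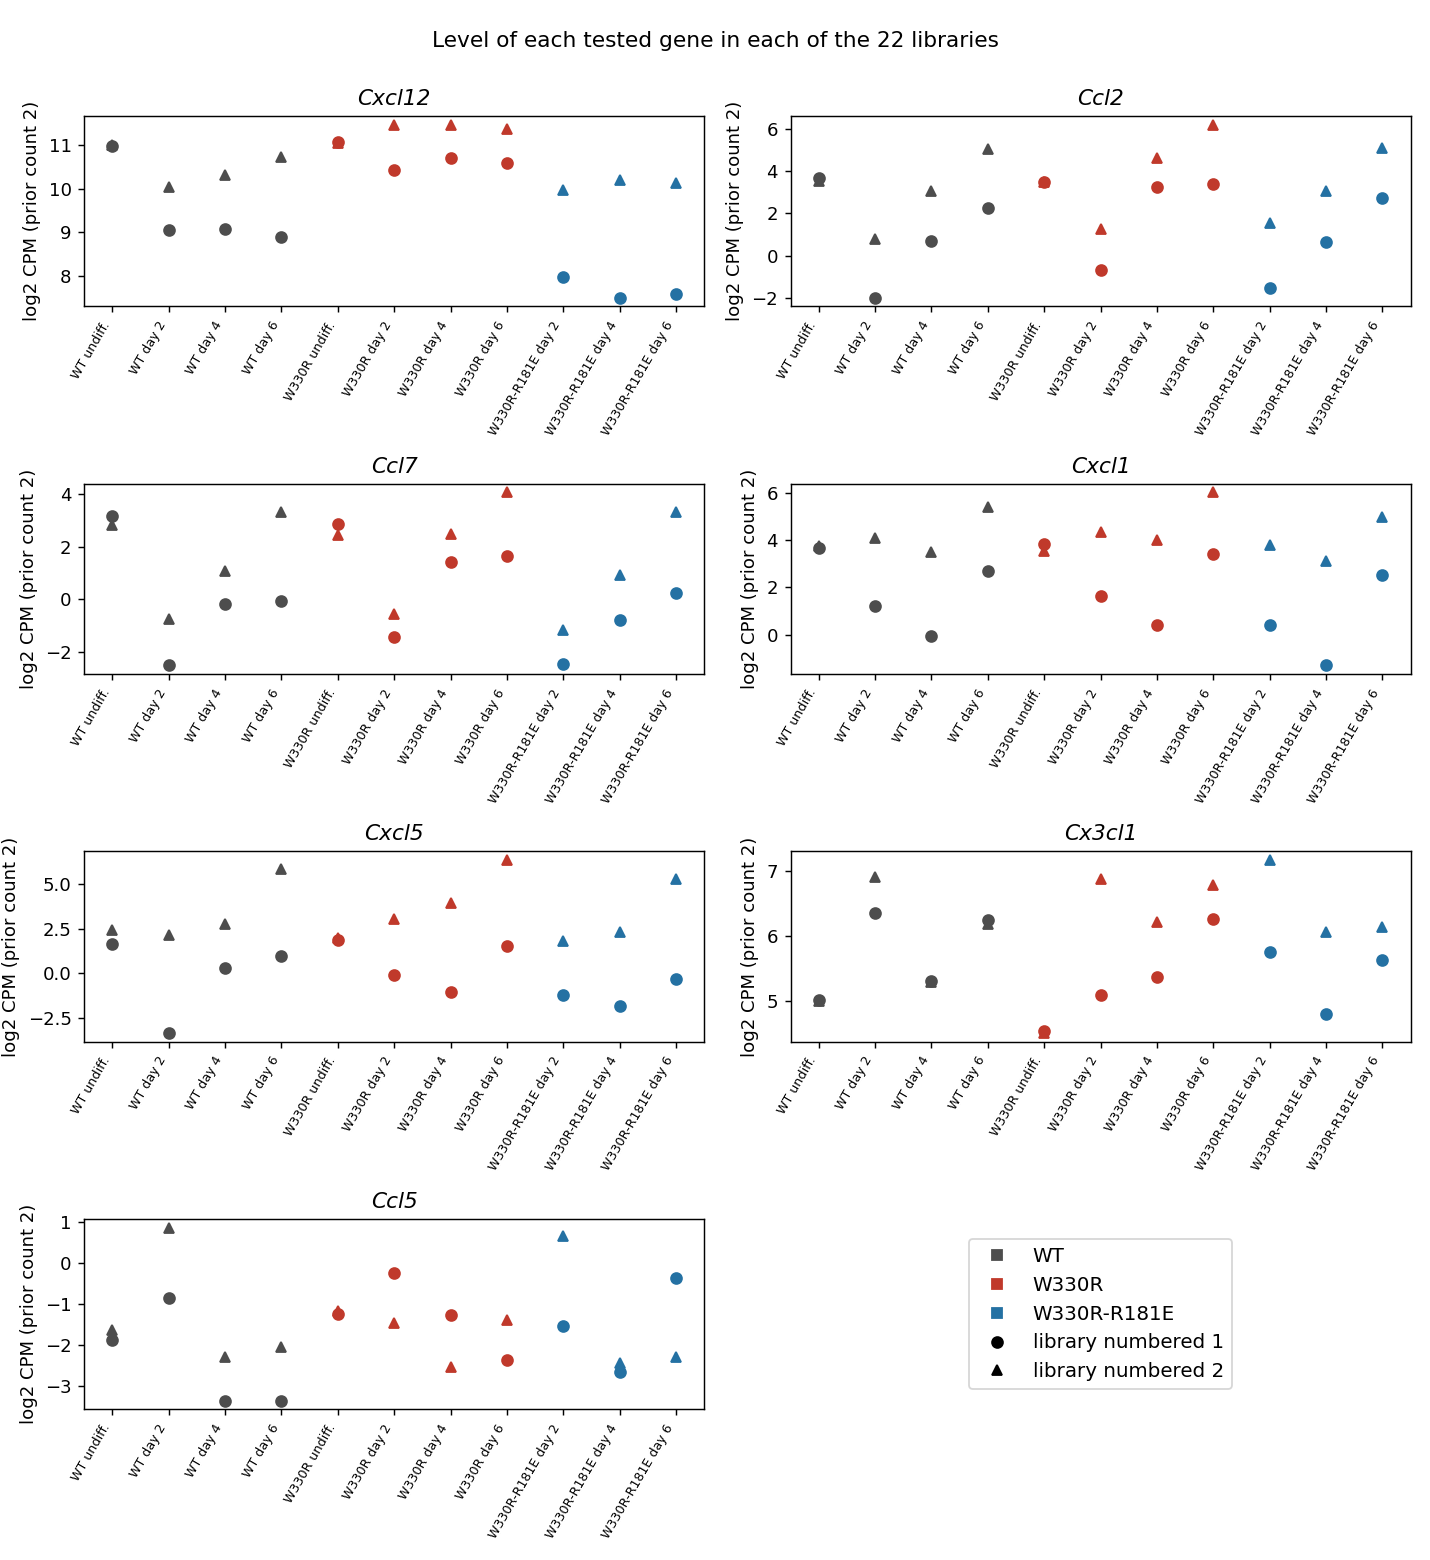
Level of the 7 tested genes in each of the 22 libraries, as log2 CPM with a prior count of 2, by genotype (colour), stage and library number (circle for 1, triangle for 2). Vertical scales differ between panels. The undifferentiated pairs coincide or nearly so, and the triangles lie above the circles in every differentiating condition of Cxcl12, Ccl2, Ccl7, Cxcl1 and Cxcl5.

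Cxcl12, the homeostatic ligand of Cxcr4 and Ackr3, stayed high in W330R cells through differentiation and was lower in the double mutant. In undifferentiated cells its 2 libraries had 2023 and 2050.2 CPM in WT and 2169 and 2134 CPM in W330R. In WT the libraries had 533 and 1062 CPM on day 2, 541 and 1268 on day 4 and 473 and 1688 on day 6. Every differentiating WT library thus lay below the undifferentiated ones. From undifferentiated cells to day 2 the log2 fold change was -1.35 (SE 0.94, edgeR adjusted p 0.245) in WT and -0.03 (SE 0.92, adjusted p 0.987) in W330R. The W330R libraries had 1377 and 2838 CPM on day 2, 1674 and 2808 on day 4 and 1539.6 and 2655 on day 6, on both sides of the undifferentiated level. The W330R-R181E libraries had 252 and 1013 CPM on day 2, 180.8 and 1176 on day 4 and 193 and 1129 on day 6. All 6 double-mutant libraries lay below all 6 W330R libraries of days 2 to 6, which held for 2.16% of tested genes and for no other of the 10, whereas WT overlapped with both mutants.

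Over days 2, 4 and 6 Cxcl12 was 3.27-fold lower in W330R-R181E than in W330R (log2 fold change -1.71, SE 0.55, edgeR adjusted p 0.0454, 2 libraries per condition). It was the 1 gene of the 7 tested that passed in this comparison, in which 9.36% of all tested genes were lower and 7.87% higher. With the library number as a block, Cxcl12 had a log2 fold change of -1.998 in this comparison (SE 0.339, edgeR adjusted p 0.00104). In the main fit, which left out the library number, the adjusted p of 0.0454 lies close to the threshold. The call was kept without W330R-R181E library 2 of day 2, day 4 or day 6 (log2 fold change -2.14, -2.34 and -2.30), and was lost without any of the other 9 libraries (-1.44 to -1.85, adjusted p 0.0523 to 0.108). Averaged over all 4 stages, W330R had 1.91-fold more Cxcl12 than WT (log2 fold change 0.94, SE 0.46), which did not pass the test (edgeR adjusted p 0.166), and W330R-R181E differed from WT by -0.49 (SE 0.53, adjusted p 0.603). The comparisons with W330R share the W330R libraries, so they are not independent of each other. Beside the lower Cxcl12, 5 of the 11 stromal markers were lower and 2 higher in W330R-R181E than in W330R, and 6 of the 11 tested adipocyte markers were higher and 1 lower. In bulk RNA, fewer cells of a type and less RNA per cell cannot be told apart, and the part of cell makeup in these values was not tested.

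**Figure D3:**
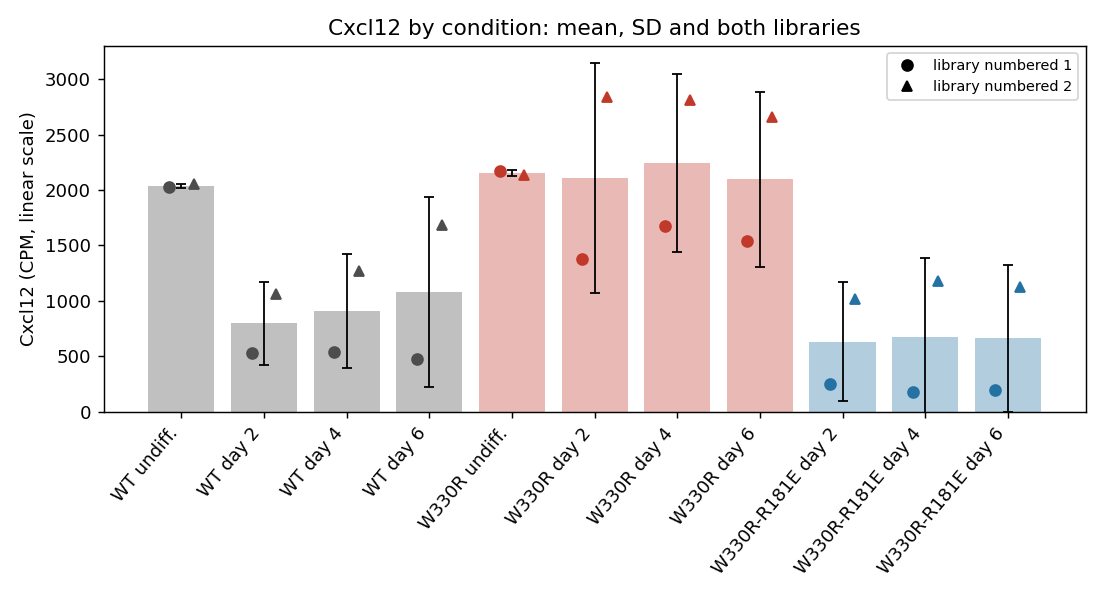
Cxcl12 in CPM on a linear scale, by condition: bars are means, error bars the SD of 2 libraries, and points the libraries (circle for 1, triangle for 2). The W330R libraries of days 2 to 6 sit between 1377 and 2838 CPM, all above the W330R-R181E libraries, which sit between 180.8 and 1176 CPM.

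The main fit held all 22 libraries and left out the library number. In it no gene of the 7 tested passed in W330R against WT, either over the 4 stages or at any one stage. Over the 4 stages none was below an unadjusted p of 0.05 and DESeq2 also called none, where edgeR called 11.2% of all tested genes higher and 11.8% lower. In undifferentiated cells 0 of the 7 passed, against 0.792% of all genes higher and 0.957% lower. The spread of this fit is shared with the differentiating conditions, whose libraries lay farther apart, so this 0 does not show equal levels. The counts were 0 of 7 on day 2 (background 1.88% higher and 1.18% lower), 0 on day 4 (2.73% and 3.4%) and 0 on day 6 (2.31% and 5.23%), again with none below an unadjusted p of 0.05 and none called by DESeq2. The fitted log2 fold changes over the 4 stages were 0.85 (SE 0.66) for Ccl2, 0.63 (SE 0.61) for Ccl7, 0.57 (SE 1.05) for Cxcl5, 0.54 (SE 0.64) for Ccl5, 0.35 (SE 0.80) for Cxcl1 and -0.01 (SE 0.27) for Cx3cl1. With standard errors of 0.61 to 1.05, the main fit could not have told a 2-fold difference from 0 for any of these but Cx3cl1. With the library number as a block, the SE was 0.37 for Ccl2, 0.42 for Cxcl1, 0.45 for Ccl7, 0.58 for Cxcl5 and 0.66 for Ccl5. In that fit Cxcl12 alone passed over the 4 stages (log2 fold change 1.01, SE 0.28, edgeR adjusted p 0.0161). In the main fit no difference between the W330R effect on days 2 to 6 and that in undifferentiated cells was called for any of the 7. By that test of the difference 0 had an unadjusted p under 0.05 (background 3.82% higher and 2.91% lower). The median log2 difference of the 7 was 0.98, beside 0.03 over all genes, so the test does not show equal effects. In W330R-R181E against WT over days 2 to 6, 0 of the 7 passed with edgeR and with DESeq2, and none had an unadjusted p under 0.05, against 4.46% of genes higher and 5.12% lower.

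**Figure D4:**
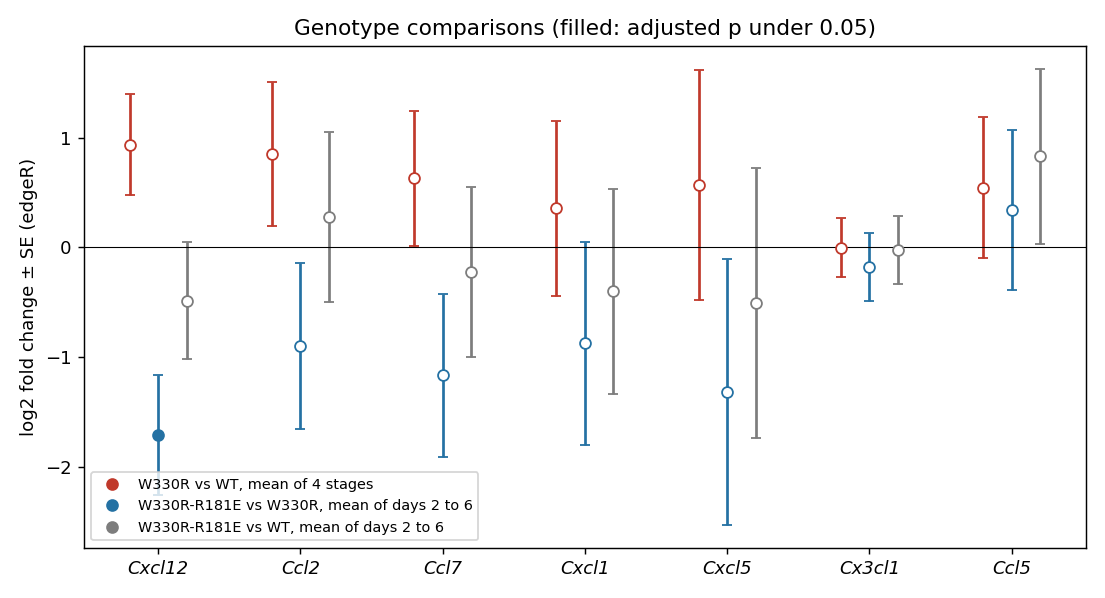
Log2 fold change with its SE (edgeR) for the 7 tested genes in the 3 averaged genotype comparisons, with filled points at an adjusted p under 0.05. The filled point is Cxcl12 in W330R-R181E against W330R, at -1.71.

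Ccl2 and Ccl7 are CC chemokines that recruit monocytes, and their genes lie next to each other on chromosome 11. Ccl7 was lower on day 2 than in undifferentiated cells in WT and in W330R, and Ccl2 was lower in WT. Both rose from day 2 to day 6 in WT and in W330R. Ccl2 had 12.9 and 11.7 CPM in the undifferentiated WT libraries and 11.4 and 11.1 CPM in those of W330R. In WT it had 0.151 and 1.62 CPM on day 2, 1.52 and 8.24 on day 4 and 4.76 and 33.5 on day 6. The day 2 libraries lay below both undifferentiated ones, and day 6 spread to either side of them. In W330R its libraries had 0.535 and 2.28 CPM on day 2, 9.54 and 24.8 on day 4 and 10.4 and 73.9 on day 6. In W330R-R181E they had 0.246 and 2.82 CPM on day 2, 1.46 and 8.18 on day 4 and 6.48 and 34.4 on day 6. In all 3 genotypes both day 6 libraries were above both day 2 libraries, and the highest level of any library was that of W330R on day 6.

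Ccl7, which acts on the same monocytes through several CC receptors, was likewise lowest on day 2. It had 8.89 and 7.04 CPM in undifferentiated WT and 7.27 and 5.32 CPM in undifferentiated W330R. On days 2, 4 and 6 its libraries had 0.0755 and 0.492, then 0.794 and 1.99, then 0.851 and 10.0 CPM in WT. In W330R the same days gave 0.267 and 0.571, then 2.61 and 5.45, then 3.03 and 16.8 CPM. W330R-R181E had 0.0821 and 0.347, then 0.486 and 1.83, then 1.07 and 10.1 CPM. The day 2 libraries were the lowest of each genotype, with 1 to 15 counts each. Over the 22 libraries the log2 CPM of Ccl7 had a Pearson r of 0.95 with Ccl2, the gene most like it among genes above a mean level of 1 on that scale, followed by Ifngr2 and Lima1, while Ccl2 itself was closest to C1ra, Rassf2 and Arhgdib among them. The points share libraries and conditions, so r is a description.

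From the undifferentiated state to day 2, Ccl7 fell in WT (log2 fold change -4.66, SE 1.39, edgeR adjusted p 0.0124) and in W330R (-3.86, SE 1.31, adjusted p 0.0255). Ccl2 fell in WT (-3.67, SE 1.47), at an edgeR adjusted p of 0.04999 that lies just under the threshold, and had -2.94 (SE 1.39, adjusted p 0.0945) in W330R. With Cx3cl1, described below, 2 genes were lower and 1 higher of the 7 tested in WT, where 24.4% of all genes were lower and 26.5% higher. In W330R 1 was lower and 1 higher, against 23% and 25.1%. From day 2 to day 6 Ccl2 rose in WT (log2 fold change 4.31, SE 1.49, edgeR adjusted p 0.0451) and in W330R (4.85, SE 1.46, adjusted p 0.0261), and had 3.60 (SE 1.42, adjusted p 0.0799) in W330R-R181E. Ccl7 rose in WT (4.12, SE 1.38, edgeR adjusted p 0.0396), in W330R (4.50, SE 1.32, adjusted p 0.0232) and in W330R-R181E (4.47, SE 1.44, adjusted p 0.0384).

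These day 6 increases were 2 of the 7 tested genes in WT, where 14.8% of all genes were higher and 11.8% lower, 2 in W330R, against 13.6% and 11.3%, and 1 in W330R-R181E, against 12.9% and 10.3%. The calls of Ccl2 and Ccl7 between day 2 and day 6 were each kept without library 1 of day 6 of the genotype and lost without any of the other 3 libraries. Without library 2 of day 2 the log2 fold change of Ccl2 in WT was 6.98, and without library 2 of day 6 that of Ccl2 was 2.31 in WT and 2.84 in W330R, while that of Ccl7 was 1.45 in WT, 2.81 in W330R and 2.15 in W330R-R181E. The fall of Ccl2 in WT was lost without any 1 of its 4 libraries (-2.92 without day 2 library 1 to -6.31 without day 2 library 2, adjusted p 0.0727 to 0.203). The fall of Ccl7 was lost without WT day 2 library 1 (-3.997, edgeR adjusted p 0.0792) and, in W330R, without either day 2 library (-3.45 and -4.53) or library 1 of the undifferentiated cells (-3.61). Over the same steps 7 of the 11 stromal markers fell and 1 rose from undifferentiated to day 2 in WT, and 8 rose from day 2 to day 6, while 10 of 11 tested adipocyte markers rose by day 2. The part of these changes in the chemokine levels was not tested.

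Cxcl1 and Cxcl5, ligands of the neutrophil receptor Cxcr2, had libraries that lay far apart within each differentiating condition. Cxcl1 had 12.8 and 13.4 CPM in undifferentiated WT and 14.3 and 11.8 CPM in undifferentiated W330R. On days 2, 4 and 6 its libraries had 2.19 and 17.3, then 0.866 and 11.3, then 6.41 and 42.8 CPM in WT. In W330R they had 2.99 and 20.4, then 1.21 and 16.3, then 10.7 and 65.9 CPM. In every one of these conditions library 1 lay below the undifferentiated level. W330R-R181E had 1.23 and 13.8, then 0.304 and 8.74, then 5.67 and 31.5 CPM. Day 6 was the highest day for both library numbers in all 3 genotypes, yet the ranges of day 2 and day 6 overlapped in each.

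Cxcl5 had 2.99 and 5.30 CPM in undifferentiated WT and 3.59 and 3.93 CPM in undifferentiated W330R. On days 2, 4 and 6 it had 0 and 4.38, then 1.16 and 6.67, then 1.87 and 58.6 CPM in WT. In W330R it had 0.855 and 8.03, then 0.382 and 15.04, then 2.82 and 82.3 CPM. The gap between libraries was widest for this gene. In W330R-R181E it had 0.328 and 3.37, then 0.182 and 4.83, then 0.697 and 38.5 CPM, so that library 1 never reached the undifferentiated range. Neither gene passed in any of the 13 comparisons in the main fit, which left out the library number. There the log2 fold change of Cxcl5 from day 2 to day 6 was 3.71 (SE 2.26, edgeR adjusted p 0.247) in WT, 3.23 (SE 2.16, adjusted p 0.300) in W330R and 3.28 (SE 2.26, adjusted p 0.316) in W330R-R181E. With the library number as a block, Cxcl5 passed over that step in WT (3.59, SE 1.21, edgeR adjusted p 0.0366). Cxcl1 and Cxcl5 were each the other's closest gene over the 22 libraries (Pearson r 0.88). Cxcl5 was next closest to Tnfaip3, an NF-kB target that feeds back on the pathway (0.83), and to Ccl2 (0.80). Cxcl1 was next closest to Mesdc2 and Gm12338.

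Cx3cl1, or fractalkine, is made as a membrane-bound adhesion molecule from which the soluble chemokine is shed. It was higher on day 2 than in undifferentiated cells. Its libraries had 32.2 and 31.6 CPM in undifferentiated WT and 23.0 and 22.6 CPM in undifferentiated W330R. In WT it had 81.8 and 119.8 CPM on day 2, 39.4 and 38.8 on day 4 and 75.4 and 72.3 on day 6, every library above the undifferentiated ones and day 4 below its neighbours. In W330R it had 33.7 and 116, then 40.9 and 74.0, then 75.9 and 109.9 CPM on the same days. In W330R-R181E it had 53.8 and 143, then 27.8 and 66.2, then 49.1 and 70.0 CPM. Among differentiating conditions, the libraries lay closest together in WT on days 4 and 6 and farthest apart on day 2 of both mutants.

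The log2 fold change of Cx3cl1 from undifferentiated cells to day 2 was 1.66 (SE 0.55, edgeR adjusted p 0.0221) in WT and 1.72 (SE 0.56, adjusted p 0.0213) in W330R. The WT call was kept without day 2 library 1 (1.91) and lost without any of the other 3 libraries (1.34 to 1.67, adjusted p 0.0899 to 0.122). The W330R call was likewise kept without day 2 library 1 (2.35), and lost without either undifferentiated library (1.74 and 1.71) or without day 2 library 2, where the value was 0.57 (adjusted p 0.447). Between undifferentiated W330R and WT cells Cx3cl1 had a log2 fold change of -0.49 (SE 0.56) that did not pass (edgeR adjusted p 0.851). In a fit of those 4 libraries alone it was the 1 gene of the 7 that passed, along with 4043 of all tested genes. Over the 22 libraries the genes most like it in level were Stx6 (Pearson r 0.89), Atoh8 (0.86) and Tyw1 (0.86).

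Ccl5, which draws T cells and monocytes, was near the limit of detection, at or under 3 counts in 11 of the 22 libraries. It had 0.176 and 0.223 CPM in undifferentiated WT and 0.327 and 0.347 CPM in undifferentiated W330R. In WT it had 0.453 and 1.72 CPM on day 2, 0 and 0.108 on day 4 and 0 and 0.146 on day 6. The day 6 value was lower than that of day 2 (edgeR adjusted p 0.0380), but the 2 libraries of day 6 held 0 and 3 counts, so no fold is given. The call was lost without day 2 library 2, which held 35 counts (adjusted p 0.312), or without day 6 library 1 (0.204). In W330R it had 0.748 and 0.266, then 0.318 and 0.0741, then 0.0972 and 0.287 CPM on days 2, 4 and 6. In W330R-R181E it had 0.246 and 1.49, then 0.0608 and 0.0870, then 0.674 and 0.108 CPM. The 0.674 CPM of W330R-R181E library 1 on day 6 stood for 29 counts, against 1 count in the other library of that condition.

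Cxcl10, an interferon-induced ligand of Cxcr3, a chemokine receptor on T cells, did not pass the filter. It had 80 counts in all and 16 of 22 libraries at or under 3 counts. Its highest level was 0.813 CPM (35 counts), in W330R-R181E library 1 of day 6. W330R followed with 0.481 and 0.0381 CPM on day 2, 0.127 and 0.185 on day 4 and 0.233 and 0.164 on day 6. WT had at most 0.227 CPM and undifferentiated cells at most 0.116 CPM. The library with the most Cxcl10 was also that with the most RNA of 22 interferon-stimulated genes, at 3242 summed CPM against 372 CPM in the other library of its condition. The next highest in that RNA, W330R library 1 of day 4 (1492 CPM), had 2 counts of Cxcl10 (0.127 CPM). Library 2 of that condition had less of that RNA (420 CPM) and 5 counts of Cxcl10 (0.185 CPM). In W330R those genes summed to 302 to 1492 CPM on days 2 to 6, and in WT to 168 to 344 CPM.

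**Figure D5:**
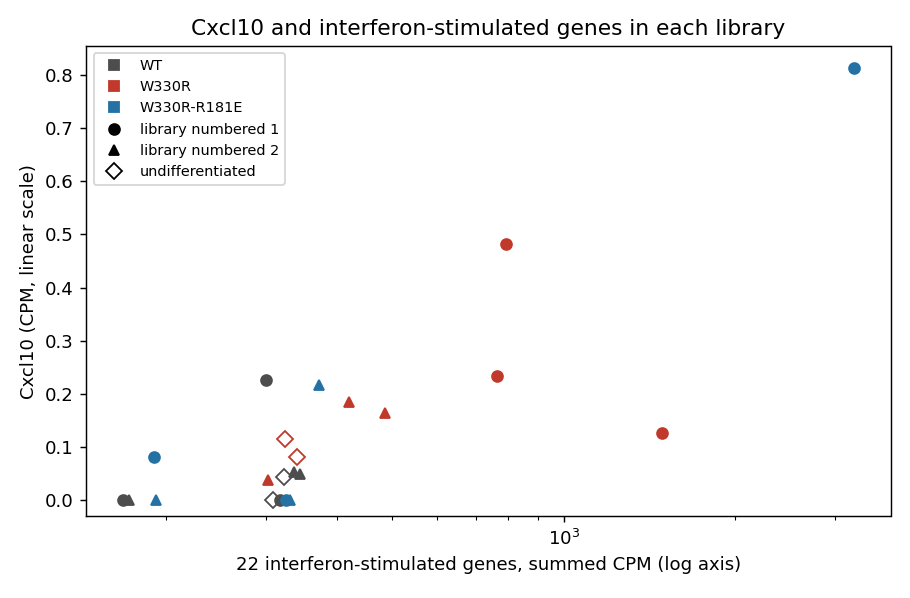
Cxcl10 in CPM (linear axis) against the summed CPM of 22 interferon-stimulated genes (log axis), 1 point per library, by genotype (colour) and library number (circle for 1, triangle for 2), with open diamonds for undifferentiated cells. The point farthest to the upper right is W330R-R181E library 1 of day 6, at 0.813 and 3242 CPM. W330R library 1 of day 4 lies at 0.127 and 1492 CPM.

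Il6, the pleiotropic cytokine that signals through Il6ra and Il6st, was at 0 in 12 of 22 libraries and held 48 counts in all. Its highest library was W330R-R181E library 2 of day 2, with 16 counts (0.792 CPM), against 1 count in the other library of that condition. The next were WT library 2 on day 4 and W330R-R181E library 2 on day 4, with 7 counts each. Cxcl14, a CXC chemokine of epithelia and stroma, had 1 count in 1 library and 0 in the other 21, so that at these depths levels up to 0.0583 to 0.347 CPM, by library, would not have been seen. These floors cover counting error only.

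Of 23 chemokine receptors, the proteins through which these ligands act, 9 passed the filter. Ackr3, the scavenging receptor of Cxcl12, had 3.17 to 31.3 CPM. Cxcr4, the signalling receptor of Cxcl12, had 0 to 2.28 CPM and Ccr2, the receptor of Ccl2 and Ccl7, 0.0870 to 0.410 CPM, too low to be tested. In W330R against WT over the 4 stages 1 of the 9 was lower (11.8% over all genes), and in W330R-R181E against W330R 1 was higher (7.87%), shares near those over all genes. Of 28 other chemokine ligands 8 were tested. None of them passed in W330R against WT (11.2% of all genes higher and 11.8% lower). In W330R-R181E against W330R 1 of the 8 was higher and 0 lower, beside 7.87% and 9.36% over all genes. It was Ccl6, a CC chemokine of rodents with 0.374 to 28.6 CPM, at 5.01-fold (log2 fold change 2.32, SE 0.39, edgeR adjusted p 0.00116). In W330R-R181E against WT 0 of the 8 passed (4.46% of all genes higher and 5.12% lower). Ccl9, a neighbour of Ccl5, had 16.7 to 134 CPM.

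Of the IL6 family and its signalling, 17 of 18 genes were tested. Il6st, the signalling subunit that the receptors of the family share, had 240 to 452 CPM and Il6ra 2.20 to 19.8 CPM. Over the 4 stages 3 of the 17 were higher in W330R than in WT (11.2% over all genes), the cytokines Ctf1 (log2 fold change 0.64, SE 0.15) and Clcf1 (0.49, SE 0.16) and the receptor Il11ra1 (0.43, SE 0.07), and 1, the kinase Jak1, was lower (-0.30, SE 0.10; 11.8% over all genes). In W330R-R181E against W330R 5 were lower and 0 higher, beside 9.36% and 7.87% over all genes, among them Clcf1 (-0.99, SE 0.19), Ctf1 (-0.74, SE 0.18), Il11ra1 (-0.63, SE 0.08) and Il6st (-0.34, SE 0.11). The median log2 fold change of the 17 was 0.03 in the first comparison and -0.34 in the second, beside 0.01 in each over all genes.

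Of 25 genes of NF-kB, its regulators and targets, 20 were tested. In W330R against WT 3 were higher and 0 lower, beside 11.2% and 11.8% over all genes: Birc3, an inhibitor of apoptosis (log2 fold change 0.77, SE 0.21), the subunit Nfkb1 (0.37, SE 0.06) and the kinase Ikbke (0.36, SE 0.12). In W330R-R181E against W330R 3 were lower and 0 higher, beside 9.36% and 7.87% over all genes: the macrophage growth factor Csf1 (-1.16, SE 0.25), Ptgs2, which makes prostaglandins (-0.98, SE 0.31), and Nfkb1 (-0.37, SE 0.07). The list medians were 0.35 and -0.38, beside 0.01 over all genes in both. From day 2 to day 6, 4 of the 20 rose in WT (14.8% over all genes), 7 in W330R (13.6%) and 6 in W330R-R181E (12.9%), with none lower. Of 22 interferon-stimulated genes 21 were tested, and 17 were higher in W330R than in WT over the 4 stages (11.2% over all genes), led by Oasl2 (4.52, SE 0.99), Ifit1 (4.04, SE 0.89), Usp18 (3.81, SE 0.85) and Isg15 (3.39, SE 0.80). Tested stage by stage, 2 of the 21 were higher on day 2 (1.88% over all genes) and 5 on day 4 (2.73%). Before differentiation 0 passed (0.792% over all genes higher), and on day 6 also 0 (2.31%). The W330R libraries stood apart, with summed levels of 792 and 302 CPM on day 2 and 1492 and 420 CPM on day 4. In W330R-R181E against W330R 7 of the 21 were lower and 0 higher (9.36% and 7.87% over all genes), with the high day 6 library of the double mutant included.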

How the data were processed

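RNA was measured by sequencing in 22 libraries of C3H 10T1/2 cells, 2 for each of 11 conditions. The authors deposited whole counts per gene symbol without normalization. The submitters' processing notes name kallisto, DESeq2 1.40 and GRCm39, with no roles, and the kit was NEBNext Ultra II. Groups came from the labels. The 10 genes and the gene lists were chosen with earlier results of these data known.

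Low genes were dropped with filterByExpr (count of at least 10, total of at least 15, in edgeR 4.0.16 and R 4.3.3), which kept 14520 of 30170. Counts were scaled by TMM and fitted with the edgeR quasi-likelihood model, 1 mean for each of the 11 conditions, so that all libraries shared 1 estimate of the spread. Calls were made at a two-sided Benjamini-Hochberg adjusted p under 0.05 over all tested genes, and the SE is the log2 fold change divided by the square root of F. CPM is scaled by TMM with no prior count, and log2 CPM has a prior count of 2. All 10 genes were named. From each list the text names up to 4 called genes with the largest change and a mean log2 CPM of at least 0, which no called chemokine receptor reached. List genes of direct interest (Ackr3, Cxcr4, Ccr2, Ccl9, Il6st, Il6ra) were added after their values were seen. Genes most like a member are the 3 with the highest Pearson r. Motifs were searched in RefSeq promoters (GRCm38.p6). The fit was tested on simulated counts. Alternatives were DESeq2 1.42.0, RLE scaling, no filter, the replicate number as a block, a fit of the compared conditions alone and leaving out each library.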

Additional observations from a re-analysis of the deposited data

How the results depend on the processing

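With 2 libraries per condition and a wide gap between them, few of the calls were stable. The number of the 7 tested genes called in W330R-R181E against W330R was 1, and 0 when the compared conditions or days 2 to 6 were fitted alone (the latter chosen after seeing the data). In W330R against WT over the 4 stages it was 0, and 1 (Cxcl12) with the compared conditions alone, and in undifferentiated cells it was 1 with the compared conditions alone. From day 2 to day 6 both of these fits gave 0 in WT and in W330R-R181E, and W330R-R181E gave 2 (Ccl7 and Ccl2) with DESeq2 or without a filter. Leaving out 1 library gave 0 to 1 for W330R-R181E against W330R, 1 for day 2 against undifferentiated cells in WT and 0 to 1 in W330R, and 0 to 2, 0 to 2 and 0 to 1 for day 6 against day 2 in WT, W330R and W330R-R181E. The cause of these changes was not tested. Fits of fewer conditions, or without 1 library, hold fewer samples. A fit of the compared conditions alone also takes its spread from those libraries only. The chi-square of counts per gene was 3.10 to 3.40 in undifferentiated conditions and 29.3 to 103 in differentiating ones.

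Replicate numbers are shared across conditions, but the labels do not say what they mark. Deviations from the condition means correlated with a mean r of 0.22 over the 36 pairs of differentiating conditions, 27 of them over 0.1. The mean r was -0.01 over the 18 pairs of an undifferentiated with a differentiating condition. Differentiating libraries of 1 number thus shared part of their deviations, whereas undifferentiated libraries showed no such link with them. The main fit left the number out, so its spread includes the shared part. With a replicate block, 1 gene (Cxcl12, log2 fold change 1.01, SE 0.28, edgeR adjusted p 0.0161) was called in W330R against WT and 2 (Ccl7 and Ccl2) from day 2 to day 6 in W330R-R181E. The block also added Cxcl12 (-1.56, adjusted p 0.0331) from undifferentiated cells to day 2 in WT, Ccl2 (adjusted p 0.00205) over that step in W330R, and Cxcl5 (3.59, adjusted p 0.0366) from day 2 to day 6 in WT. In days 2 to 6 only with the replicate block, chosen after seeing the data, the counts were 3 (Ccl2, Ccl7 and Cxcl12, all higher) in W330R against WT, 5 (Ccl2, Ccl7, Cxcl1, Cxcl5 and Cxcl12, all lower) in W330R-R181E against W330R, 1 (Ccl2) in W330R against WT on day 4 and 1 on day 6, and 4 (Ccl2, Ccl7, Cxcl1 and Cxcl5) from day 2 to day 6 in each genotype. The shares of all genes called in this fit are not given here, so these counts have no background to be read against. In this fit Cxcl12 had a log2 fold change of 1.35 (SE 0.27, edgeR adjusted p 0.00269) in W330R against WT and -2.07 (SE 0.28, adjusted p 0.000467) in W330R-R181E against W330R.

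Directions held for Cxcl12 under all alternatives in the 3 averaged comparisons. In W330R against WT, Cx3cl1 turned to 0.15 over days 2 to 6 alone and 0.048 with the replicate block in that fit. Leaving out 1 library moved the log2 fold change of Cx3cl1 between -0.29 and 0.15 in W330R against WT, -0.46 and 0.20 in W330R-R181E against W330R and -0.32 and 0.15 in W330R-R181E against WT. In the same order it moved that of Cxcl1 between -0.36 and 1.05, -2.17 and 0.081, and -1.71 and 0.53, and that of Cxcl5 between -0.52 and 2.70, -2.91 and 0.13, and -2.10 and 2.33. In W330R-R181E against WT that of Ccl2 ran from -0.63 to 1.15 and that of Ccl7 from -0.99 to 0.67, and in W330R-R181E against W330R that of Ccl5 ran from -0.33 to 0.73. Over all genes, the number called in W330R against WT was 254, 445, 891 and 1095 (undifferentiated, then days 2, 4 and 6), and with the conditions fitted alone 4043, 0, 0 and 51. DESeq2 gave 528, 1081, 1700 and 1754, and the replicate block 909, 1848 and 1757 on days 2, 4 and 6. For W330R-R181E against WT the 1390 genes became 2338 with the replicate block, 2272 with DESeq2, 690 over days 2 to 6 and 152 with the conditions alone, and the 3369 genes of day 6 against day 2 in W330R-R181E became 79. Depth limits Cxcl10, Cxcl14 and Il6, whose counts were mostly at or under 3, and Ccl5, at or under 3 in 11 of 22 libraries.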
